A study of Saccharomyces cerevisiae with 26 samples.

Results

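The small ribosomal subunit protein genes of baker's yeast, Saccharomyces cerevisiae, were taken as all genes of the count table whose standard R64 symbol is RPS with a number and, for a duplicated gene, the letter A or B. This rule found 56 of 7036 genes. They encode 32 proteins, of which 24 come from an A and a B copy and 8 from a single gene (RPS12, RPS13, RPS20 and RPS31 among them). An intron interrupts 36 of the 56 genes. All 56 were among the 4473 genes that passed the filter on low counts.

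The 40S subunit binds the mRNA and reads its codons, and each subunit carries a single copy of each of its proteins, so that yeast in rapid growth makes all of them in large and balanced amounts. Most of the A and B copies were kept after an ancient duplication of the whole genome, and many of them encode identical proteins. Their transcription is driven in common by the factors Rap1, Fhl1, Ifh1 and Sfp1, and the introns that many of them carry are otherwise rare in yeast.

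Transcripts (RNA-Seq of RNA selected on oligo(dT) beads) and ribosome-protected fragments (Ribo-Seq footprints from monosomes) were measured from the same lysates of exponentially growing cells in rich YPD medium. The gir2Δ strain carries gir2::KanMX and lacks Gir2, the partner of the GTPase Rbg2, and the pub1Δ strain carries pub1::KanMX and lacks the RNA-binding protein Pub1. The wt strain was BY4742, and all 3 strains share MATalpha his3delta1 leu2delta0 lys2delta0 ura3delta0; both deletions were made by transforming BY4742 with a KanMX cassette, and the number of clones used is not given in the sources used here. There were 4 gir2Δ, 5 pub1Δ and 5 wt RNA-Seq libraries and 4 Ribo-Seq libraries of each strain, spread over 4 batches.

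The RNA-Seq libraries held 2217490 to 3896827 gene counts and the Ribo-Seq libraries 540986 to 3123180. Reads that map to several places were not counted and made up 6.23 to 12.3% of the reads given to the aligner in RNA-Seq and 41.0 to 61.2% in Ribo-Seq. GIR2 had 0 to 16 counts in gir2Δ libraries against 120 to 504 in wt libraries, and PUB1 had 1 to 47 in pub1Δ libraries against 639 to 2457 in wt libraries. The genotype label of 1 pub1Δ RNA-Seq library (replicate 1) names gir2, while its counts were 1 for PUB1 and 894 for GIR2. Genes specific to MATa cells had at most 20 counts in any library. HIS3 had 48 to 366 counts per library in spite of his3delta1, so its counts do not check that allele. Batch 2 holds only gir2Δ libraries and batch 3 only pub1Δ libraries. With batch in the model, the gir2Δ estimates therefore rest on replicate 4 of each assay, the pub1Δ Ribo-Seq estimate on replicate 4, and the pub1Δ RNA-Seq estimate on replicates 4 and 5. The labels do not say that replicates are separate cultures, so that p-values measure the spread between these libraries, which may be technical.

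The coding sequences of 3 pairs are shown because they decide how many reads of each copy can be told apart. All come from the RefSeq R64 genome and are written 5′ to 3′ on the coding strand, with the bases that differ between the copies in capitals. RPS6A and RPS6B differ at 6 of 711 coding bases, and the 90-base stretch with most differences (coding positions 52 to 141, chrXVI:377861-377950, minus strand, and chrII:592282-592371, minus strand) holds 2 of them:
RPS6A: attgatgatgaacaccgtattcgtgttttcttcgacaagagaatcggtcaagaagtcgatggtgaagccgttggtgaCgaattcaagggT
RPS6B: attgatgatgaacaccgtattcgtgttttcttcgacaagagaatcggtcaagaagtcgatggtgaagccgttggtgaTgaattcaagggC
RPS27A and RPS27B differ at 39 of 249 bases although their proteins differ at 1 residue, and 23 of the differences lie between positions 130 and 219 (chrXI:159093-159182, plus strand, and chrVIII:147901-147990, minus strand):
RPS27A: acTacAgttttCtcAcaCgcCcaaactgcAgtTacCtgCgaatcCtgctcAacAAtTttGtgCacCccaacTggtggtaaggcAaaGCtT
RPS27B: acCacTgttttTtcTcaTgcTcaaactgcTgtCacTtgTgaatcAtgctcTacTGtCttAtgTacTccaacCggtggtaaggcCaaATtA
RPS28A and RPS28B are shown in full because the balance of their footprints differed between the strains, as given with the copy ratios. They differ at 24 of 204 bases and at 1 residue (chrXV:648804-649007, minus strand, and chrXII:673131-673334, plus strand):
RPS28A: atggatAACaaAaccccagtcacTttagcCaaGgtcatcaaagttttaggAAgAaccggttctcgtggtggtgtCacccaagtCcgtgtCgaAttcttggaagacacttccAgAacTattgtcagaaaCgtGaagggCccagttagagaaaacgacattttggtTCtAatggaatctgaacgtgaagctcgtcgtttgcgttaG
RPS28B: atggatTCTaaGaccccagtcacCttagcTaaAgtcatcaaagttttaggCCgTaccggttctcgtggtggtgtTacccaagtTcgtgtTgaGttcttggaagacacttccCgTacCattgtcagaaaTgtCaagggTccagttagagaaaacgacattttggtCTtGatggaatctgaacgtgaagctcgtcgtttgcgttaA

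The share of each coding sequence that can be counted followed from these differences. A window of 28 bases, the length of a footprint, was called unique when its sequence occurs once in the genome on either strand. RPS6A and RPS6B had 18.6% unique windows, RPS4A and RPS4B 36.9%, and RPS24A and RPS24B 43.3%. In all, 8 members were below 50%. A further 19 members had 50 to 90%, and 29 had 90% or more, among them RPS27A and RPS27B with 99.5%. RPS4, RPS6, RPS16, RPS18, RPS23, RPS24 and RPS30 are among the pairs that encode identical proteins from both copies. With windows of 75 bases RPS6 had 36.6%, RPS4 70.9% and RPS24 73.7% unique.

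The bases ACCCNNACA, a core of the Rap1 site, were searched on both strands between 100 and 500 bases before the start codon, without any overlap with another motif being considered. They were found before 18 of the 56 genes (32.1%), before 36 of 81 large subunit and stalk protein genes (44.4%) and before 298 of 5915 genes in all (5.04%). A match is a run of letters and not a measured site.

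Levels were CPM, the count of a gene scaled to a common normalised library size, per kilobase of coding sequence, a scale on which genes of different length can be compared. The 56 genes together held 8.49 to 9.79% of the counts of a Ribo-Seq library and 10.0 to 14.8% of those of an RNA-Seq library. They are shares of a library: in bulk samples fewer cells of a type and less RNA per cell cannot be told apart. Counts of single members ran between 126 and 45174 per library.

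RPS31, which encodes ubiquitin fused to a small subunit protein, had the highest level in each strain and assay. Its Ribo-Seq level was 9610, 9983, 9757 and 9856 CPM per kb in gir2Δ, 8808, 9468, 9186 and 8243 in pub1Δ, and 9665, 9997, 10196 and 9253 in wt. Its RNA-Seq level was 18250, 18474, 18526 and 21180 in gir2Δ, 28214, 22733, 18808, 15803 and 14286 in pub1Δ, and 14092, 16634, 19150, 14355 and 13711 in wt. Each deletion strain overlapped with wt in both assays, while in Ribo-Seq each gir2Δ library lay above each pub1Δ library. The highest RNA-Seq values were those of pub1Δ replicates 1 and 2, of batch 3. In wt RNA-Seq, RPS31 averaged 15588 ± 2295, RPS12 11903 ± 1430 and RPS20 7732 ± 833 CPM per kb (SD, n = 5). The ranges of RPS31 and RPS12 overlapped between libraries, but within each wt library RPS31 was the higher. Rps20, encoded by RPS20, lies in the head of the subunit. In wt Ribo-Seq the leading genes were RPS31 with 9778 ± 413, RPS13 with 8300 ± 98.7, RPS20 with 7919 ± 103 and RPS27B with 7865 ± 677 (SD, n = 4), and RPS20 and RPS27B did not differ beyond their spread.

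At the low end stood RPS9A, the minor copy of the RPS9 pair, and genes with few unique windows. RPS9A had 607, 566, 553 and 621 CPM per kb in gir2Δ Ribo-Seq, 652, 646, 687 and 668 in pub1Δ, and 524, 592, 584 and 464 in wt, so that each pub1Δ library lay above each wt library. In wt RNA-Seq RPS9A with 584 ± 113 and RPS14B with 739 ± 104 CPM per kb were among the lowest (SD, n = 5). Their ranges overlapped between libraries, but within each wt library RPS14B was the higher. In wt Ribo-Seq the lowest were RPS6B with 474 ± 81.0, RPS6A with 505 ± 61.0 and RPS9A with 541 ± 59.5 (SD, n = 4). Their ranges overlapped too, but within each wt library RPS9A was above RPS6A and RPS6B. The highest member stood 20.6-fold above the lowest in wt Ribo-Seq and 26.7-fold in wt RNA-Seq. The 8 single-copy genes had a median of 7724 CPM per kb in wt Ribo-Seq and 7363 in wt RNA-Seq, against 3229 and 3796 for the 48 genes with a second copy. These values do not allow for lost windows. All 28-base windows are unique in 7 of the single-copy genes, while genes with a second copy go down to 18.6%. The part of this loss in the difference was not tested. Genes with an intron had a median of 3229 in wt Ribo-Seq and 3839 in wt RNA-Seq, against 5623 and 5953 for those without one, but 7 of the 8 single-copy genes have no intron.

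**Figure D1:**
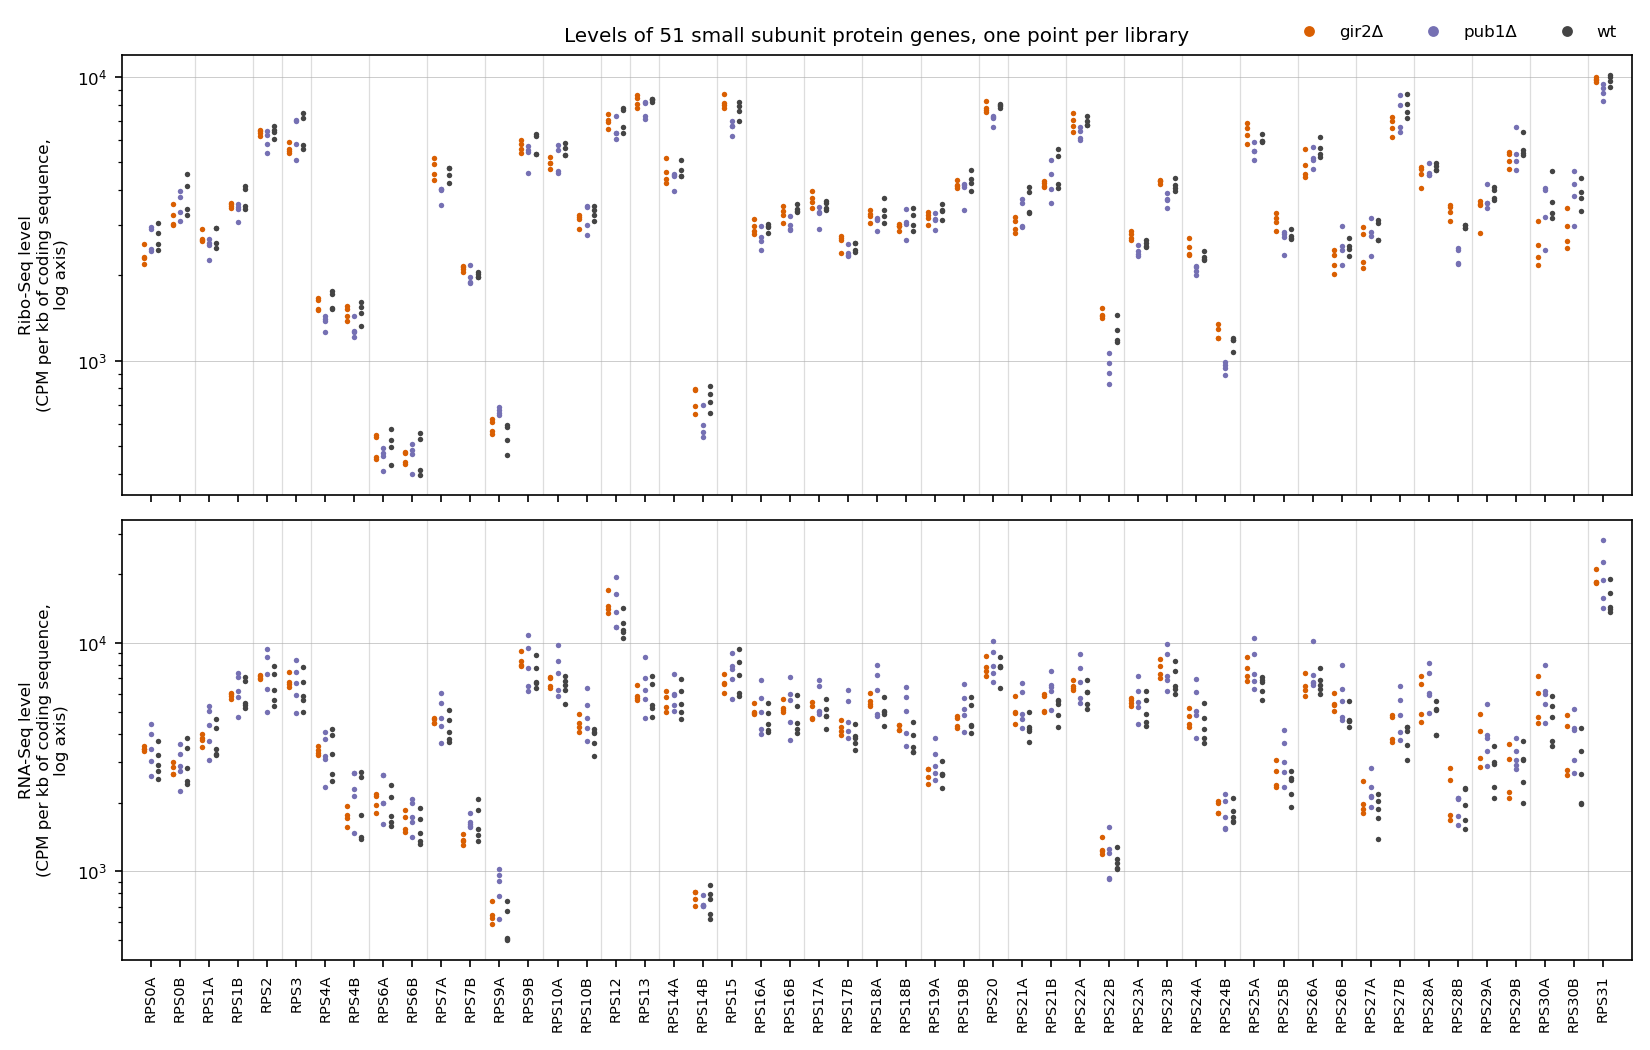
Levels of 51 of the 56 genes in each library, in CPM per kb of coding sequence on a log axis, with Ribo-Seq above and RNA-Seq below; each point is 1 library, coloured by strain. RPS31 is highest in both assays, and RPS6A, RPS6B, RPS9A and RPS14B are at the low end in Ribo-Seq.

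Replicates agreed more closely in footprints than in transcripts. The median coefficient of variation of a member over the libraries of a strain was 5.36% in gir2Δ, 7.61% in pub1Δ and 6.41% in wt Ribo-Seq, and 7.73%, 20.6% and 14.9% in the RNA-Seq of the same strains. Transcript and footprint levels of the 56 genes followed each other, with a Pearson r of log2 levels per kb of 0.835 in gir2Δ, 0.848 in pub1Δ and 0.848 in wt. Divided by the unique windows instead of the coding length, r was 0.756, 0.770 and 0.768 in the same order of strains. These are correlations across genes that share their libraries and, per kilobase, their length and unique share.

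The proteins of A and B copies share between 87.9% (RPS7) and 100% of their residues. The ratio of the copies compares their transcripts or their footprints, and protein amounts were not measured. In wt RNA-Seq the A copy was higher in 16 of the 24 pairs, in 14 of them in every library, and the B copy was higher in 8, in 6 of them in every library. In wt Ribo-Seq A was higher in 14 pairs and B in 10. The higher copy was the same in both assays for 22 of 24 pairs, with an r of 0.959 across the pairs. In 8 pairs of either assay the copies differed by more than 2-fold, and the median absolute log2 ratio was 0.51 in Ribo-Seq and 0.74 in RNA-Seq.

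The RPS9 pair, whose protein helps to keep the decoding of mRNA accurate, was the most unequal. Its log2 A over B was -3.42 ± 0.07 in wt Ribo-Seq (SD, n = 4) and -3.65 ± 0.10 in wt RNA-Seq (SD, n = 5), in favour of RPS9B. RPS14 and RPS22 were next in transcripts, in favour of the A copy. For RPS14, whose protein Rps14 represses the splicing of the RPS14B transcript, the ratio was 2.67 ± 0.10 in wt Ribo-Seq and 2.92 ± 0.09 in wt RNA-Seq. For RPS22 it was 2.46 ± 0.09 and 2.41 ± 0.07. The intron of RPS22B holds the snoRNA gene SNR44 on the same strand. Among the pairs nearest to equal in wt RNA-Seq were RPS0 (0.02 ± 0.10) and RPS29 (-0.03 ± 0.06), whose libraries fell on both sides of 0.

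In the pairs with less than 50% unique windows both copies lose the same windows, so the ratio rests on few countable positions but on the same share of each copy. Log2 A over B in wt Ribo-Seq was 0.10 ± 0.14 for RPS6, 0.13 ± 0.07 for RPS4 and 1.01 ± 0.09 for RPS24 (SD, n = 4). In wt RNA-Seq it was 0.29 ± 0.04, 0.78 ± 0.16 and 1.27 ± 0.12 in the same order of pairs (SD, n = 5). In RPS6 the footprint libraries fell on both sides of 0, while in RPS4 and RPS24 A was higher in each wt library of both assays. RPS30 had a clear transcript ratio that footprints did not share, with -0.08 ± 0.11 in wt Ribo-Seq and 0.74 ± 0.18 in wt RNA-Seq. The assays also differed for RPS0 and RPS29, which were near equal in wt transcripts. Each wt footprint library favoured their B copy, at -0.56 to -0.40 for RPS0 and -0.64 to -0.43 for RPS29. Footprints of RPS27, a protein bound to the solvent side of the subunit, favoured the B copy by -1.45 ± 0.21 and its transcripts by -1.07 ± 0.07.

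Some copy ratios differed between strains beyond the range of the libraries. The following pairs were chosen after their values were seen and carry no test. For RPS28, log2 A over B in Ribo-Seq was 0.38 to 0.47 in gir2Δ, 0.87 to 1.07 in pub1Δ and 0.64 to 0.75 in wt, with no overlap. Within batch 1 it was 0.38 in gir2Δ, 0.87 in pub1Δ and 0.64 in both wt libraries. In RNA-Seq it was 1.33 to 1.47 in gir2Δ, 1.49 to 1.99 in pub1Δ and 1.15 to 1.39 in wt, so that in transcripts only pub1Δ lay apart from wt. The footprints of the single copies show which one differed. RPS28B had 3470, 3553, 3338 and 3119 CPM per kb in gir2Δ, 2197, 2497, 2209 and 2464 in pub1Δ, and 3011, 2945, 2941 and 2998 in wt, and the 3 strains did not overlap. RPS28A had 4802, 4732, 4537 and 4056 in gir2Δ, 4605, 4988, 4532 and 4515 in pub1Δ, and 4694, 4963, 4873 and 4687 in wt, with overlap between the strains. The Rps28 protein represses the RPS28B transcript through its 3′ end in a known feedback loop.

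For RPS9 the ratio was nearer to 0 in pub1Δ, at -3.13 to -2.78 in Ribo-Seq against -3.52 to -3.35 in wt, and at -3.40 to -3.06 in RNA-Seq against -3.76 to -3.52 in wt. In batch 1 it was -2.78 in pub1Δ footprints against -3.52 and -3.35 in wt, and -3.31 in pub1Δ transcripts against -3.76 to -3.65 in wt. In gir2Δ RNA-Seq 3 pairs leaned more to the A copy: RPS29 with 0.40 to 0.50 against -0.07 to 0.07 in wt, RPS0 with 0.24 to 0.37 against -0.10 to 0.14 in wt, and RPS7 with 1.62 to 1.86 against 1.29 to 1.48 in wt. Their Ribo-Seq ratios overlapped with those of wt in gir2Δ.

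**Figure D2:**
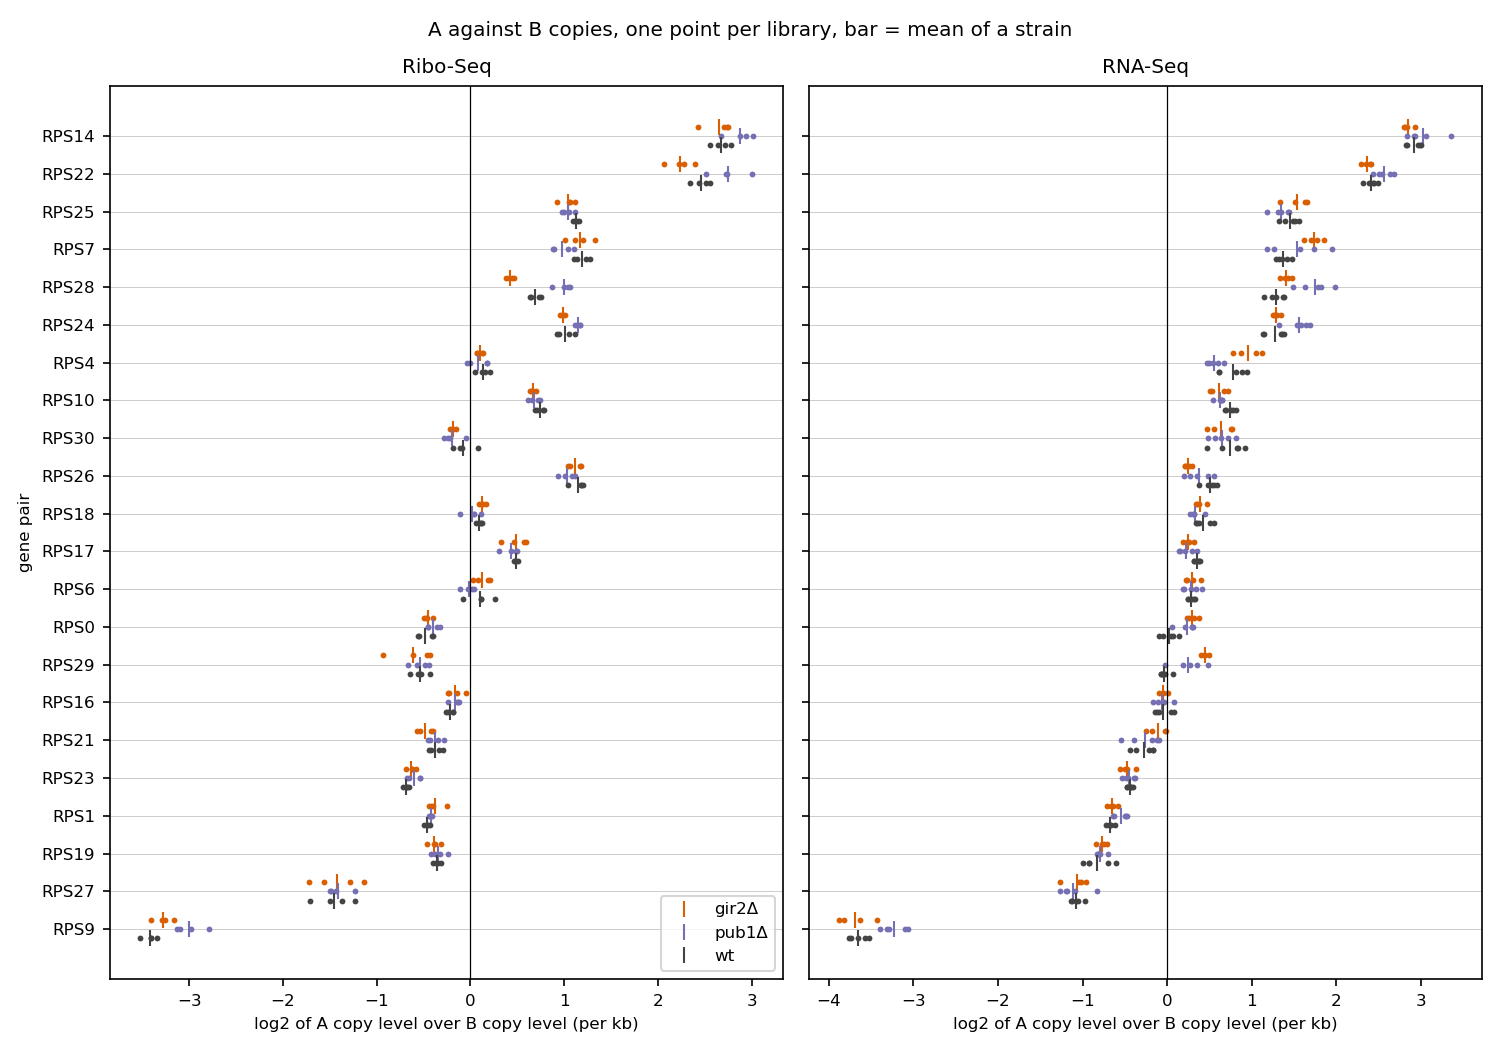
Log2 of the A copy level over the B copy level of 22 of the 24 pairs in Ribo-Seq (left) and RNA-Seq (right); each point is 1 library and each bar the mean of a strain. RPS9 lies furthest to the left, RPS14 and RPS22 furthest to the right, and the footprint ratios of RPS28 form 3 separate groups of libraries.

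Each subunit holds 1 copy of each protein, so the spread of levels between genes was measured for single genes and for the sum of A and B. The spread is the SD of log2 levels, averaged over libraries. Per kilobase of coding sequence it was 1.05 for single genes and 0.70 for the sums in wt Ribo-Seq, and 0.98 and 0.56 in wt RNA-Seq. Divided by unique windows, it was 0.76 for single genes and 0.29 for the sums in wt Ribo-Seq, and 0.88 and 0.51 in wt RNA-Seq. The footprint spread of the sums on this scale was 0.28 in gir2Δ and 0.30 in pub1Δ. For the 18 proteins whose genes have at least 90% unique windows, the spread of the sums in wt Ribo-Seq was 0.23 per kilobase of coding sequence, with no correction for lost windows.

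On the scale of unique windows the sums in wt Ribo-Seq had a median of 8789 CPM per kb, and 31 of 32 lay within 1.5-fold of it. The lowest was RPS6 with 5481 ± 758 and the highest RPS30 with 12405 ± 1765 (SD, n = 4), a ratio of 2.26. The highest value depended on the scale. Divided by coding length times unique share, the sums ran between 5273 and 11029, a ratio of 2.09. Per kilobase of coding sequence the same sums ran between 979 for RPS6 and 10741 for RPS27. Rps6 is the phosphorylated protein at the foot of the subunit. RPS6 was thus the one protein outside the band when its few unique windows were allowed for. Transcript sums on the same 28-base scale ran between 6188 ± 1097 for RPS13 and 20189 ± 2941 for RPS23 (SD, n = 5), a ratio of 3.26, and 23 of 32 lay within 1.5-fold of their median, but 30 did with windows of 50 bases and 31 with windows of 75. Across the 32 proteins footprint sums were lower the longer the coding sequence, with a Spearman rho of -0.62, against -0.03 for transcript sums on the same scale, which became -0.19 and -0.43 with windows of 50 and 75 bases. Both values describe proteins measured in the same libraries.

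The place of RPS6 in transcripts depended on the window length. Its transcript sum was 19237 ± 3273 CPM per kb of unique windows of 28 bases, 13350 ± 2271 with 50 bases and 10485 ± 1784 with 75 (SD, n = 5), which ranked 2, 4 and 14 among the 32 proteins. The length of the RNA-Seq reads is not given in the sources used here, and with longer reads more of a transcript is countable: the spread of the transcript sums in wt was 0.41 with windows of 50 bases and 0.39 with windows of 75, against 0.51 with windows of 28.

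**Figure D3:**
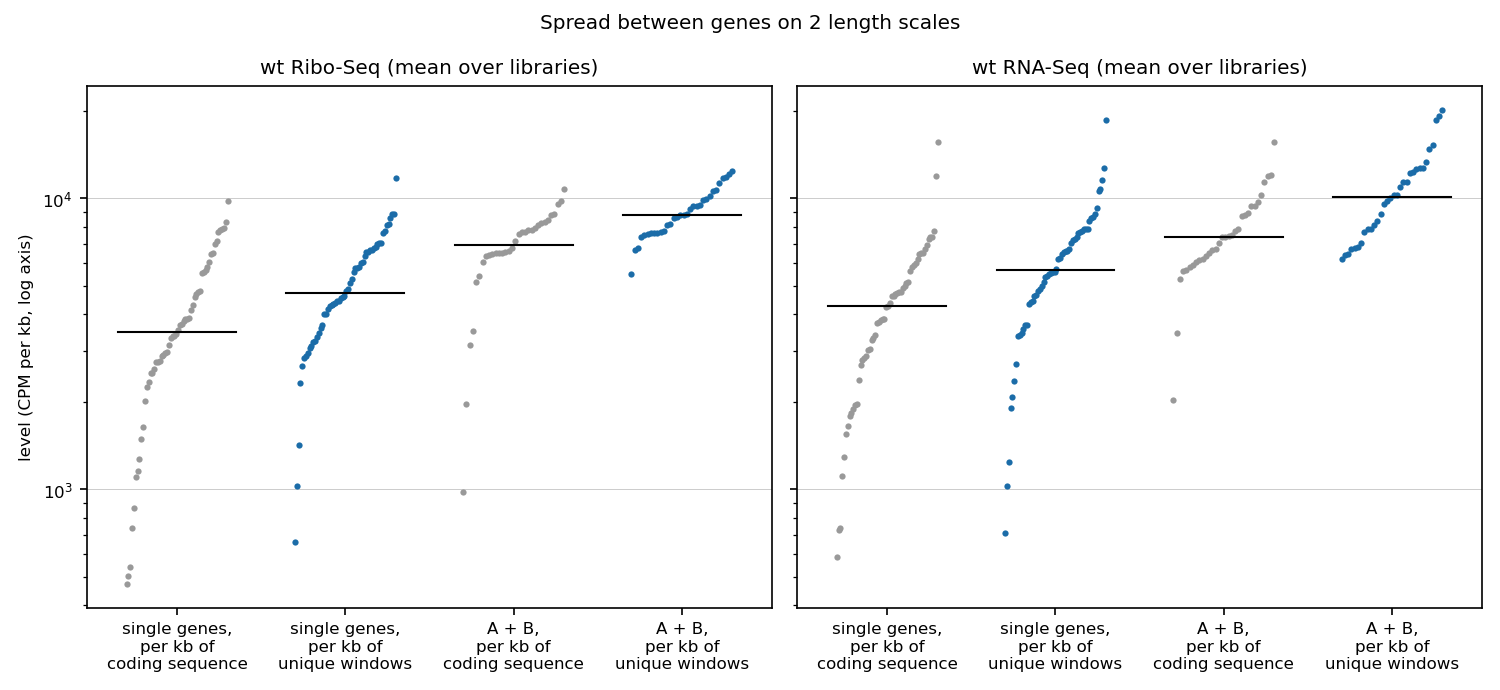
Mean wt levels of single genes (56 points) and of A plus B sums (32 points) in Ribo-Seq (left) and RNA-Seq (right), sorted, on a log axis in CPM per kb of coding sequence (grey) or of unique 28-base windows (blue), with the median as a line. The footprint sums per unique window form the narrowest group, between 5481 and 12405.

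Ribosome occupancy is the footprint count of a gene relative to its transcript count. In wt, edgeR called 45 of the 56 genes between Ribo-Seq and RNA-Seq at an adjusted p under 0.05, 36 higher in footprints and 9 lower. Of all tested genes 64.5% were called, 29.2% higher and 35.3% lower. The median log2 ratio was 0.31 for the small subunit genes, 0.37 for the large subunit and stalk protein genes and -0.09 for all tested genes. This fit scaled the libraries of both assays together, while levels were scaled within each assay. Fitted ratios and levels are therefore not on one scale. The median level of the members was 3475 CPM per kb in wt Ribo-Seq and 4257 in wt RNA-Seq. The direction of the smaller ratios depends on this scaling. The highest were RPS27B (1.54 ± 0.11 SE), RPS29B (1.51 ± 0.16), RPS27A (1.17 ± 0.12), RPS28B (1.15 ± 0.12) and RPS13 (1.03 ± 0.08), with adjusted p-values between 1.37e-07 and 3.91e-06. RPS29 encodes the smallest proteins of the subunit. RPS29A (1.01 ± 0.14) and RPS30B (1.01 ± 0.21) followed, and RPS19A (0.85 ± 0.08) completed the higher genes among the 10 largest changes. RPS27B had 7533, 8063, 8712 and 7151 CPM per kb in wt Ribo-Seq against 4111, 3562, 4269, 3064 and 4288 in wt RNA-Seq, and RPS13 had 8174, 8399, 8274 and 8353 against 5367, 6605, 7196, 5195 and 4744. On the scale of these levels the assays did not overlap for either gene.

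The lowest were RPS6A (-1.40 ± 0.09 SE, adjusted p = 3.98e-08) and RPS6B (-1.22 ± 0.09, adjusted p = 1.43e-07), followed by RPS4A (-0.50 ± 0.09, adjusted p = 3.18e-04). RPS6A had 496, 526, 573 and 427 CPM per kb in wt Ribo-Seq against 1650, 2107, 2380, 1742 and 1572 in wt RNA-Seq, without overlap. The ratio moved with the unique share, whose part in it was not tested beyond this split. Its median was -0.25 in the 8 members under 50% unique windows (2 called higher, 4 lower), 0.18 in the 19 between 50 and 90% (9 higher, 3 lower) and 0.56 in the 29 at 90% or more (25 higher, 2 lower). RPS31 lay at -0.16 ± 0.07 in spite of 88.7% unique windows. The ratio also moved with length: after a trend with coding length over all genes was removed, the median of the members was 0.08 and the ratios of RPS29A and RPS30B, at 0.14 and 0.25, were no longer called. RPS27A was at 0.13 and not called when reads were counted without regard to strand. In that setting reads over genes on both strands are dropped as ambiguous. The RefSeq annotation lists no gene that overlaps RPS27A, and the cause of its change was not tested.

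**Figure D4:**
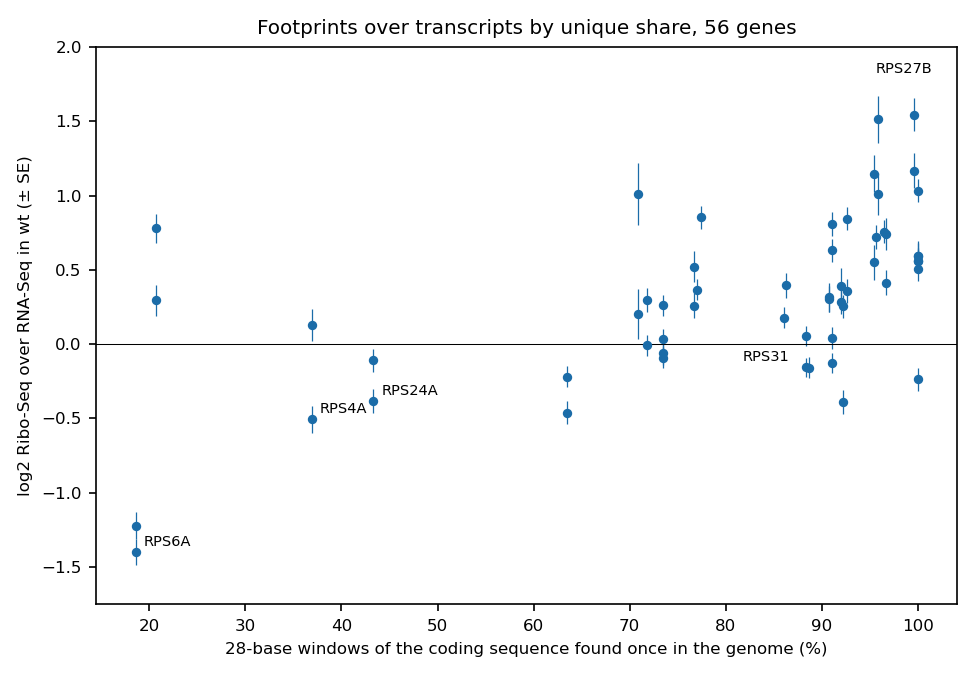
Log2 of wt Ribo-Seq over RNA-Seq (fitted value with its SE) against the percentage of unique 28-base windows of the coding sequence, 1 point per gene. RPS6A and RPS6B, at 18.6% unique, are the lowest, and RPS27B, at 99.5%, is the highest at 1.54.

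The deletion strains were compared with wt to ask whether the loss of Gir2 or Pub1 changed the transcripts, the footprints or the occupancy of these genes. In gir2Δ RNA-Seq most members lay a little higher than in wt, with a median log2 fold change of 0.29 against -0.00 over all tested genes, and 53 of 56 were above 0. The large subunit and stalk protein genes had a median of 0.32. edgeR called 0 of the 56 members (0.0671% of all tested genes called), and DESeq2 called 0. At an unadjusted p under 0.05 there were 20 members, all higher, against 14% of all tested genes (7.11% higher). The largest values were those of RPS12 (0.59 ± 0.17 SE, adjusted p = 0.181), RPS31 (0.57 ± 0.17, adjusted p = 0.202) and RPS21A (0.54 ± 0.15, adjusted p = 0.186), and the lowest that of RPS7B (-0.19 ± 0.13). RPS12 encodes a protein at the beak of the subunit.

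RPS12 had 14156, 13599, 14521 and 17016 CPM per kb in gir2Δ RNA-Seq against 11119, 12216, 14231, 11380 and 10570 in wt. The highest wt library lay within the gir2Δ range, and the highest gir2Δ value was that of replicate 4, the library of batch 1. For no member did all gir2Δ RNA-Seq libraries lie outside the wt range (2.3% of tested genes were wholly above and 3.11% wholly below). After ComBat-seq batch correction and a model of strain alone, the procedure named in the study's methods, 32 members were called, 31 higher and RPS7B lower. When the pub1Δ libraries were left out of the fit, RPS12 and RPS31 were called. In batches 1 and 2 without a batch term 7 members were called, all higher, and without any batch term 0, with a median of 0.11. For these settings the share of all tested genes called is not given here. Their member counts, that of ComBat-seq included, therefore cannot be set against a background.

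In gir2Δ Ribo-Seq the members were centred near 0, with a median of -0.03 against -0.04 over all tested genes, and 19 of 56 were above 0. edgeR called 0 (0.0224% of tested genes called), DESeq2 called 0, and 3 members had an unadjusted p under 0.05, against 8.43% of tested genes. The extremes were RPS9A (0.33 ± 0.12 SE, adjusted p = 0.538) and RPS12 (0.19 ± 0.10) at the top and RPS30A (-0.41 ± 0.26) and RPS29A (-0.40 ± 0.12, adjusted p = 0.418) at the bottom. In 3 members, RPS23A and RPS28B among them, all gir2Δ libraries lay above all wt libraries (2.79% of tested genes), and in 5, with RPS10A, RPS21A, RPS29A and RPS30A among them, all lay below (3.73%). RPS29A had 3656, 3526, 3581 and 2823 CPM per kb in gir2Δ against 3758, 4109, 4007 and 3687 in wt. Its lowest value, in replicate 4, is also the one on which its estimate rests. After ComBat-seq 16 members were called, 7 higher and 9 lower, again without a share of all tested genes to set beside them.

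Occupancy in gir2Δ (the strain by assay interaction) lay below 0 for 51 of 56 members. The median was -0.32, against -0.00 over all tested genes and -0.34 for the large subunit and stalk protein genes. edgeR called 0 members and 0% of all tested genes, DESeq2 called 0 members, and 9 members had an unadjusted p under 0.05, all lower, against 7.6% of tested genes (4.36% lower). RPS29A (-0.85 ± 0.37 SE, adjusted p = 0.597) and RPS21A (-0.76 ± 0.22, adjusted p = 0.338) were lowest, and RPS7B (0.28 ± 0.17) was highest. After ComBat-seq 30 members were called, 29 lower and RPS7B higher, again without a share of all tested genes to set beside them. With the coding-length trend removed the median was -0.10. Occupancy shares its libraries with both single-assay comparisons.

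In pub1Δ RNA-Seq the median was -0.07 against -0.00 over all tested genes, and 17 of 56 members were above 0. edgeR called 0 (0.0447% of tested genes called), DESeq2 called 0, and 8 members had an unadjusted p under 0.05 (1 higher, 7 lower), against 9.39% of tested genes (5.32% higher, 4.07% lower). RPS30B (0.32 ± 0.25 SE) and RPS29A (0.28 ± 0.21) were highest, and RPS4A (-0.32 ± 0.12, adjusted p = 0.403) and RPS22B (-0.26 ± 0.11) lowest. No member lay wholly above or below wt (2.97% and 1.23% of tested genes). Within pub1Δ the libraries of batch 3 stood apart: the members held 12.3 to 14.8% of the counts there, against 10.6 and 11.2% in replicates 5 and 4. The share reached 12.3% in wt (replicate 3) and 12.4% in gir2Δ (replicate 4), within the range of batch 3. Without a batch term the median was 0.19. After ComBat-seq 3 members were called, RPS9A higher and RPS4A and RPS22B lower, again without a share of all tested genes.

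In pub1Δ Ribo-Seq the members were slightly lower than in wt. The median was -0.13 against -0.02 over all tested genes and -0.15 for the large subunit and stalk protein genes, and 51 of 56 members were below 0. edgeR called 0 (0.134% of tested genes called), DESeq2 called 0, and 15 members had an unadjusted p under 0.05, 14 of them lower, against 7.91% of tested genes (2.73% higher, 5.19% lower). RPS7A (-0.40 ± 0.10 SE, adjusted p = 0.14) and RPS22B (-0.36 ± 0.12, adjusted p = 0.403) were lowest, and RPS9A (0.43 ± 0.12, adjusted p = 0.23) and RPS30B (0.06 ± 0.21) highest. RPS7A had 4009, 4040, 4044 and 3532 CPM per kb in pub1Δ against 4779, 4247, 4799 and 4529 in wt, and RPS22B had 831, 979, 902 and 1066 against 1288, 1160, 1182 and 1443. The strains did not overlap for either gene. In all, 14 members had each pub1Δ footprint library below each wt library, where 2.37% of tested genes did, and RPS9A was the one member above (1.74%). Among the 14 were RPS4A, RPS7A, RPS13, RPS15, RPS16B, RPS20, RPS22A, RPS22B, RPS23B, RPS24A, RPS24B, RPS25A and RPS28B. The 3 pub1Δ libraries of batch 3 were the shallowest Ribo-Seq libraries, with 540986 to 986174 counts. After ComBat-seq 19 members were called, RPS9A higher and 18 lower, again without a share of all tested genes to set beside them.

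Occupancy in pub1Δ had a median of -0.04 against 0.01 over all tested genes, with 23 members above 0. edgeR called 0 members and 0% of tested genes, DESeq2 called 0 members, and 0 members had an unadjusted p under 0.05, against 3.76% of tested genes. RPS9A (0.24 ± 0.16 SE) and RPS19B (0.19 ± 0.18) were highest and RPS29A (-0.30 ± 0.33) and RPS7A (-0.25 ± 0.17) lowest. RPS9A was thus higher in pub1Δ in transcripts (0.22 ± 0.10) and in footprints, each short of the threshold. Its RNA-Seq level was 1027, 967, 910, 779 and 618 CPM per kb in pub1Δ against 497, 673, 739, 505 and 508 in wt, and only replicate 5 of pub1Δ lay within the wt range.

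**Figure D5:**
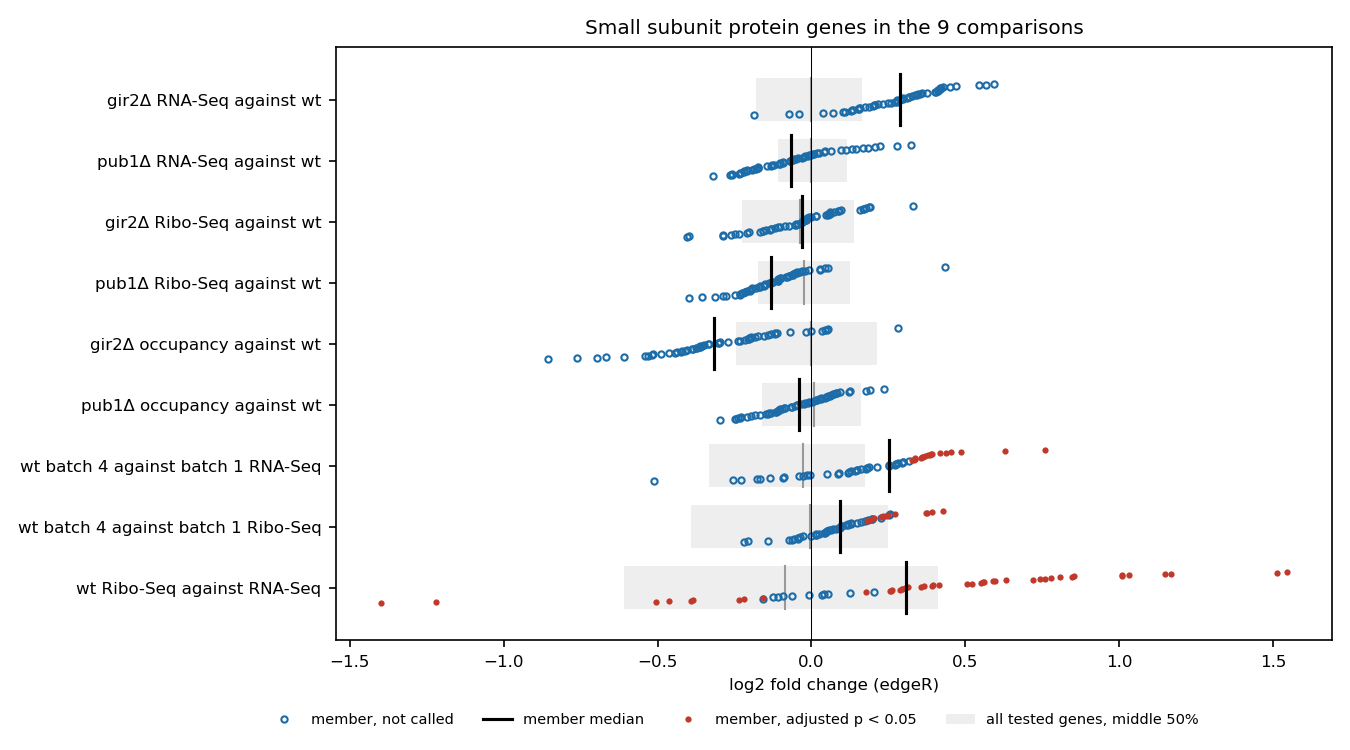
Log2 fold change of the 56 genes in the 9 comparisons (edgeR); each point is 1 gene, filled where the adjusted p is under 0.05, the black bar is the median of the 56 genes and the grey box the middle 50% of all tested genes. The gir2Δ transcript median (0.29) and occupancy median (-0.32) lie outside the grey box. So does the median between batch 4 and batch 1 of wt RNA-Seq (0.25), where the strain is the same. Called genes appear only in the comparisons within wt.

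The same wt strain was also compared between its batches. Between batch 4 and batch 1 of wt RNA-Seq (2 and 3 libraries) edgeR called 19 members, all higher in batch 4, where 30.3% of tested genes were called, 10.2% higher. The median of the members was 0.25 against -0.03 over all tested genes. Among the largest were RPS4B (0.76 ± 0.13 SE, adjusted p = 1.65e-04), RPS4A (0.49 ± 0.13), RPS0B (0.45 ± 0.12), RPS9A (0.44 ± 0.11), RPS15 (0.42 ± 0.13), RPS7B (0.39 ± 0.12), RPS6A (0.39 ± 0.12), RPS13 (0.39 ± 0.12) and RPS1A (0.38 ± 0.12). RPS4B had 2590 and 2727 CPM per kb in batch 4 against 1386, 1763 and 1406 in batch 1, without overlap. RPS30B (-0.51 ± 0.22) and RPS30A (-0.26 ± 0.18) were lowest and not called. The count changed with single libraries of batch 1: 3 members were called without wt RNA-Seq replicate 1, 29 without replicate 4 and 6 without replicate 5. The share of all tested genes called in these fits is not given here, so these counts have no background. The median of the members was 0.16 to 0.33 over all fits with 1 library left out.

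In wt Ribo-Seq (2 libraries in each batch) 12 members were called, all higher in batch 4, where 31.1% of tested genes were called, 11.2% higher. The median was 0.09 against -0.01 over all tested genes. RPS6B (0.43 ± 0.09 SE), RPS21B (0.39 ± 0.06), RPS0B (0.38 ± 0.06) and RPS3 (0.37 ± 0.05) were largest, and RPS22B (-0.22 ± 0.09) and RPS14B (-0.21 ± 0.10) lowest and not called. RPS3, whose protein sits at the mRNA entry, had 7497 and 7164 CPM per kb in batch 4 against 5761 and 5589 in batch 1, without overlap. In both assays 7 members were called, RPS0B, RPS1A, RPS1B, RPS3, RPS4A and RPS6B among them, which is 36.8% of the transcript calls and 58.3% of the footprint calls. The share of all tested genes called in both assays is not given here, so this overlap has no background beside it. With 1 wt Ribo-Seq library left out, which leaves 1 library in a batch, the median of the members was 0.087 to 0.106. What differs between the batches is not given in the sources used here.

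Genes that act on the small subunit were read beside its proteins. Of 21 factors that assemble or escort the 40S subunit (such as TSR1, LTV1, ENP1, RIO1, RIO2 and NOB1), 0 were called in gir2Δ Ribo-Seq by edgeR, while 20 were above 0 with a median of 0.37 and 10 had an unadjusted p under 0.05, where 8.43% of tested genes did. In gir2Δ RNA-Seq 18 were above 0 with a median of 0.28 and 9 had an unadjusted p under 0.05 (14% of tested genes), and in pub1Δ 0 did in either assay, with medians of 0.06 in Ribo-Seq and -0.09 in RNA-Seq. For occupancy 2 had an unadjusted p under 0.05 in gir2Δ (7.6% of tested genes) and 1 in pub1Δ (3.76%), and edgeR called 0 in each strain comparison. Between batch 4 and batch 1 of wt all 21 were above 0 in both assays, with 11 called and a median of 0.41 in Ribo-Seq (31.1% of tested genes called) and 10 called and a median of 0.35 in RNA-Seq (30.3%). ASC1, the gene of a further 40S protein outside the symbol rule, was called higher in batch 4 in Ribo-Seq (0.38 ± 0.05 SE) and in RNA-Seq (0.40 ± 0.13), and its log2 fold changes in the strain comparisons of a single assay, between -0.26 and 0.00, were not called. Of 10 regulators of ribosomal protein genes 9 were tested, with medians between -0.16 and 0.07 in the strain comparisons.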

How the data were processed

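The authors deposited raw read counts per gene, without normalization, for 26 libraries (14 RNA-Seq, 12 Ribo-Seq). According to the methods, reads were trimmed with cutadapt 2.10, Ribo-Seq duplicates were removed before barcodes were trimmed, rRNA reads were discarded, and STAR 2.7.9a counted uniquely mapped reads on R64. Collapsing duplicates can lower the footprint counts of abundant genes, and its effect was not tested. The submitters' processing notes name Bowtie2 1.2.3. The counts used are those of the gene-sense strand, and the table has 0 columns of other samples.

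Symbols, coordinates and sequences came from RefSeq R64 (5956 of 7036 identifiers matched). Genes with at least 10 CPM in at least 4 libraries of each assay were kept. Differences were tested with the quasi-likelihood test of edgeR 4.0.16 (R 4.3.3) with TMM factors, batch and strain as terms and Benjamini-Hochberg adjustment over the 4473 genes. Occupancy was the interaction of strain and assay. Levels are CPM per 1000 bases of coding sequence or of unique 28-base windows, and SDs are over libraries. TMM factors were taken within an assay for levels and over all libraries of a fit for tests. Fits and window counts were tested on simulated data. No 2 libraries of a group were duplicates: over 44 pairs the chi-square of the counts per degree of freedom was at least 2.12. Counts of members on the other strand were at most 0.360% of their total.

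Alternatives were no batch term, ComBat-seq (sva 3.50.0), DESeq2 1.42.0, median-of-ratios factors, other filters (none, 30 CPM), counts of both strands, removal of a coding-length trend, a replicate block, the compared strains alone, batches 1 and 2 alone, each library left out, members by unique share and other window lengths. Members, lists and alternatives were chosen with earlier results of these data known. Genes were named if called (the 10 largest where more were called), if among the highest and lowest 2 of a comparison or the highest and lowest 3 in level, if in the 3 most or least unequal pairs or a pair under 50% unique windows, or for a known special feature. RPS30, RPS7, RPS10A, RPS21A, RPS23A, RPS25A and other genes given for libraries that do not overlap were named after their values were seen. Some members are counted but not reported here by name.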

Additional observations from a re-analysis of the deposited data

Results flagged for a closer look

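In groups of 4 or 5 libraries, 1 library stood far from the rest (Dixon's test at the 95% level) in 7 of 186 sets of values examined, and chance gives about 1 in 20. Of these, 4 are in libraries on which a batch-adjusted estimate rests. RPS31 in gir2Δ RNA-Seq replicate 4 had 21180 CPM per kb, above 18250 to 18526 in the other libraries. RPS29A in gir2Δ Ribo-Seq replicate 4 had 2823 CPM per kb, below 3526 to 3656. RPS7A in pub1Δ Ribo-Seq replicate 4 had 3532 CPM per kb, below 4009 to 4044. RPS14B in pub1Δ RNA-Seq replicate 4 had 789 CPM per kb, above 702 to 714.

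The other 3 were in libraries of batches 2 and 3. RPS14A in pub1Δ Ribo-Seq replicate 3, the shallowest Ribo-Seq library, had 3963 CPM per kb against 4463 to 4538. The log2 A over B of RPS14 in gir2Δ Ribo-Seq replicate 1 was 2.43, and the other libraries reached 2.75. That of RPS16 in pub1Δ Ribo-Seq replicate 3 was -0.24 against -0.14 to -0.13. The cause of these values was not tested.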

How the results depend on the processing

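Across all settings, 405 values of counts, medians and spreads moved by less than the spread between libraries (counts by less than 1.5 times) and 46 by more, and of the values of named genes 1350 kept their direction and call, 21 became called, 35 lost the call and 8 changed sign. ComBat-seq before a model of strain alone gave 32 called members in gir2Δ RNA-Seq, 16 in gir2Δ Ribo-Seq, 30 in gir2Δ occupancy, 3 in transcripts of pub1Δ and 19 in its footprints, against 0 in each with batch as a term. No share of all tested genes called is given here for this or the other alternative settings. In gir2Δ RNA-Seq, 2 members were called with the compared strains alone and 7 in batches 1 and 2 without a batch term. With the replicate number as a block 1 member was called there, RPS29A, 0 in the other strain comparisons and 43 for wt Ribo-Seq over RNA-Seq. Whether the numbers pair the libraries is not known. Same-numbered libraries of different strains correlated in their deviations from the strain mean between -0.46 and 0.79 in RNA-Seq. In Ribo-Seq they did so between -0.60 and 0.89. Differently numbered ones ran between -0.84 and 0.82 and between -0.87 and 0.91. Batch was not taken out of these deviations, so the ranges cannot show whether the numbers pair libraries. Without a batch term the median was 0.11 in gir2Δ transcripts, 0.19 in pub1Δ transcripts and -0.28 for pub1Δ occupancy. With the coding-length trend removed it was 0.14 in gir2Δ RNA-Seq, 0.036 in gir2Δ Ribo-Seq, -0.10 in gir2Δ occupancy and 0.081 for wt Ribo-Seq over RNA-Seq; in batches 1 and 2 it was 0.049 in gir2Δ Ribo-Seq. For wt Ribo-Seq over RNA-Seq the median was 0.10 with the filter at 30 CPM, and 0.56 and 0.59 in members with at least 90% and 99% unique windows. Between batch 4 and batch 1 of wt RNA-Seq, 11 members were called at 30 CPM and 2 to 29 with 1 library left out; in wt Ribo-Seq, 4 to 15 with 1 library left out. The spread of single genes in wt Ribo-Seq was 0.76 per unique window, 0.69 in members with at least 90% unique windows, 0.75 with the length multiplied by the unique share, and 0.82 and 0.89 with windows of 50 and 75 bases; for sums it was 0.29, 0.23, 0.26, 0.38 and 0.49. In wt RNA-Seq it was 0.88, 0.79, 0.89, 0.85 and 0.85 for single genes and 0.51, 0.39, 0.52, 0.41 and 0.39 for sums. The 8 changes of sign were RPS22B in pub1Δ RNA-Seq (0.085 without a batch term), RPS12 in gir2Δ Ribo-Seq (-0.027 without a batch term), RPS30B in pub1Δ Ribo-Seq (-0.048 with the replicate block, and -0.048 to 0.166 with 1 library left out, the lowest without wt replicate 1), and, in pub1Δ occupancy, RPS29A (0.055 with the length trend removed and 0.058 with the block), RPS19B (-0.23 without a batch term) and RPS9A (-0.23 without a batch term). The settings with a length scale, windows of 50 and 75 bases, and members at 99% were added after the data were seen. Leaving out gir2Δ replicate 4, or pub1Δ Ribo-Seq replicate 4, left no estimate with batch in the model. The causes of these differences were not tested. Depth limits the low members most, and the lowest count was 126, of RPS14B in pub1Δ Ribo-Seq replicate 3.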
